A study of Mus musculus with 7 samples.

Results

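The genes described here are 7 regulators that shorten the life of inflammatory messenger RNAs: Zfp36, Zfp36l1, Zfp36l2, Zc3h12a, Rc3h1, Btg1 and Btg2. They were chosen by gene name, and all 7 were found among the 35641 genes of the deposited table. RNA had been sequenced from cells sorted from lungs of C57BL6 females, with 4 HF libraries and 3 LF libraries, and the labels give no further meaning of HF and LF, no age and no diet. The title of the study names obesity, and the design counts 4 HF and 3 LF mice. Per the labels the sorted cells were CD45+ CD11b+ Ly6Clo Ly6G+, the surface pattern of neutrophils, and SMART-Seq libraries were made from their RNA. No allele or agent is named for either group.

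Many mRNAs of cytokines and early response genes carry signals in their 3′ untranslated region that limit how long they last. Tristetraprolin, the product of Zfp36, and its relatives encoded by Zfp36l1 and Zfp36l2 bind AU-rich elements there and recruit the CCR4-NOT complex, which removes the poly(A) tail. Regnase-1 (Zc3h12a) is an endonuclease that cuts mRNAs at stem-loops, and Roquin-1 (Rc3h1) binds stem-loops and also recruits CCR4-NOT. The products of Btg1 and Btg2 bind the deadenylase subunits of that complex. In myeloid cells this system is known for limiting the output of inflammatory mRNAs, and Zfp36 and Btg2 are themselves early response genes.

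The LF libraries carried the neutrophil transcripts that their sort label implies at far lower levels than the HF libraries. Ly6g, the gene of the sort marker Ly6G, averaged 3264 ± 1715 normalized counts in HF libraries (SD, n = 4) and 2.99 ± 4.54 in LF libraries (SD, n = 3). Of the Ly6C genes, Ly6c2 averaged 4193 ± 1589 in HF and 13682 ± 1221 in LF libraries, and Ly6c1 78.0 ± 33.5 and 28.6 ± 5.76. Itgam (CD11b) averaged 7506 ± 130 in HF and 3354 ± 227 in LF libraries, and Ptprc (CD45) 78839 ± 3462 and 39627 ± 1178. The 14 neutrophil markers summed to between 432058 and 588002 normalized counts in HF libraries and to between 12926 and 14352 in LF libraries, with Ly6g and Stfa2l1 at 0 in some of the LF libraries. The 15 monocyte and interstitial macrophage markers summed to between 31737 and 43228 in HF libraries and to between 173156 and 183937 in LF libraries, with C1qa at 0 in some HF libraries. The LF libraries are for this reason called LF-labelled libraries, and every direction below is a difference between HF libraries and those libraries. What part of any difference comes from the cell types present was not tested, and in RNA from bulk cells fewer cells of a type and less RNA per cell cannot be told apart. Reads in genes numbered 13943173 to 16599658 in HF libraries and, with the LF label, 16974428 to 18983351.

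Part of the system can be read in the mRNAs themselves. The Zfp36 proteins are known to bind an AU-rich nonamer, here searched on the transcript strand as TTATTTATT in the longest annotated 3′ untranslated region of each gene (GENCODE M21, build GRCm38). Of the 7 regulators, Zfp36, Zfp36l1, Zfp36l2 and Rc3h1 had 1 nonamer each, and Zc3h12a, Btg1 and Btg2 had 0. Of 11603 tested genes with a 3′ untranslated region, 944 (8.14%) had at least 1. The sites of these 4 regulators are shown with those of Tnf, which codes for the cytokine first linked to tristetraprolin, and of Cxcl2 and Ptgs2, because their levels are compared below; capitals mark the nonamer in a stretch of 30 bases.
Zfp36: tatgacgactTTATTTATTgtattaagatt
Zfp36l1: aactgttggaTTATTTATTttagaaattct
Zfp36l2: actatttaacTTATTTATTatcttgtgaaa
Rc3h1: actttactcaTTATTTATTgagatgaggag
Tnf: tatttattatTTATTTATTatttatttatt
Cxcl2: atgtatttatTTATTTATTaattccattgc
Ptgs2: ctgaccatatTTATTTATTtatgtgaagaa
These stretches lie at chr7:28376950-28376979, chr12:80108166-80108195 and chr17:84184913-84184942 on the minus strand for the Zfp36 genes, in that order. That of Rc3h1 lies at chr1:160970043-160970072 on the plus strand, that of Tnf at chr17:35199677-35199706 on the minus strand, that of Cxcl2 at chr5:90905340-90905369 and that of Ptgs2 at chr1:150105790-150105819, both on the plus strand. Tnf had 5 nonamers and Cxcl2 had 4, of which 1 each is shown, and Ptgs2 had 1. Those of Tnf form an overlapping run, whereas in Cxcl2 the one shown overlaps 1 other and the rest lie apart. In the stretches shown, the letters ATTTA recur across the edges of the capitals in Tnf, Cxcl2 and Ptgs2 and not in the 4 regulators. Over the whole 3′ untranslated region ATTTA occurred 3, 9, 5 and 20 times in Zfp36, Zfp36l1, Zfp36l2 and Rc3h1. In Tnf, Cxcl2 and Ptgs2 it occurred 8, 11 and 14 times. In the same annotation the genes span chr7:28376784-28380253 (Zfp36), chr12:80107754-80113013 (Zfp36l1), chr17:84183931-84187947 (Zfp36l2), chr4:125118423-125127840 (Zc3h12a), chr1:160906418-160974978 (Rc3h1), chr10:96617006-96622809 (Btg1) and chr1:134075170-134079120 (Btg2). Which build and annotation the authors used is not stated in their labels, so these positions are those of the reference only.

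All 7 regulators were higher in HF libraries than in LF-labelled libraries with the authors' scaling, by 0.62 to 2.38 on the log2 scale, although Zfp36l2 turned to -0.20 after quantile normalization. No HF library overlapped a LF-labelled library in any of the 7. Each passed the test (limma on log2 of the normalized count plus 1, Benjamini-Hochberg adjusted p at most 0.00285 over all genes tested). The same direction was called in 26.2% of the 14936 genes tested, and 28.4% stood wholly above LF-labelled libraries without overlap. With equal library totals 5 of the 7 were called higher (18.1% of genes tested were then higher and 42.1% lower), and after quantile normalization 6 of the 7 (26.6% higher and 26.8% lower). On the reads recovered from the table all 7 were called higher by edgeR (26.3% of genes tested higher and 24.8% lower) and by DESeq2 (29.3% higher and 27.4% lower). The median of the 7 was 1.55 on the log2 scale, beside -0.16 for all genes tested. All 7 had passed the filter of a mean of 10 normalized counts, and the lowest single library held 168 reads (Zfp36l1). In the authors' deposited table the log2 fold changes of the 7, HF over LF, lay between 0.619 and 2.38.

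**Figure D1:**
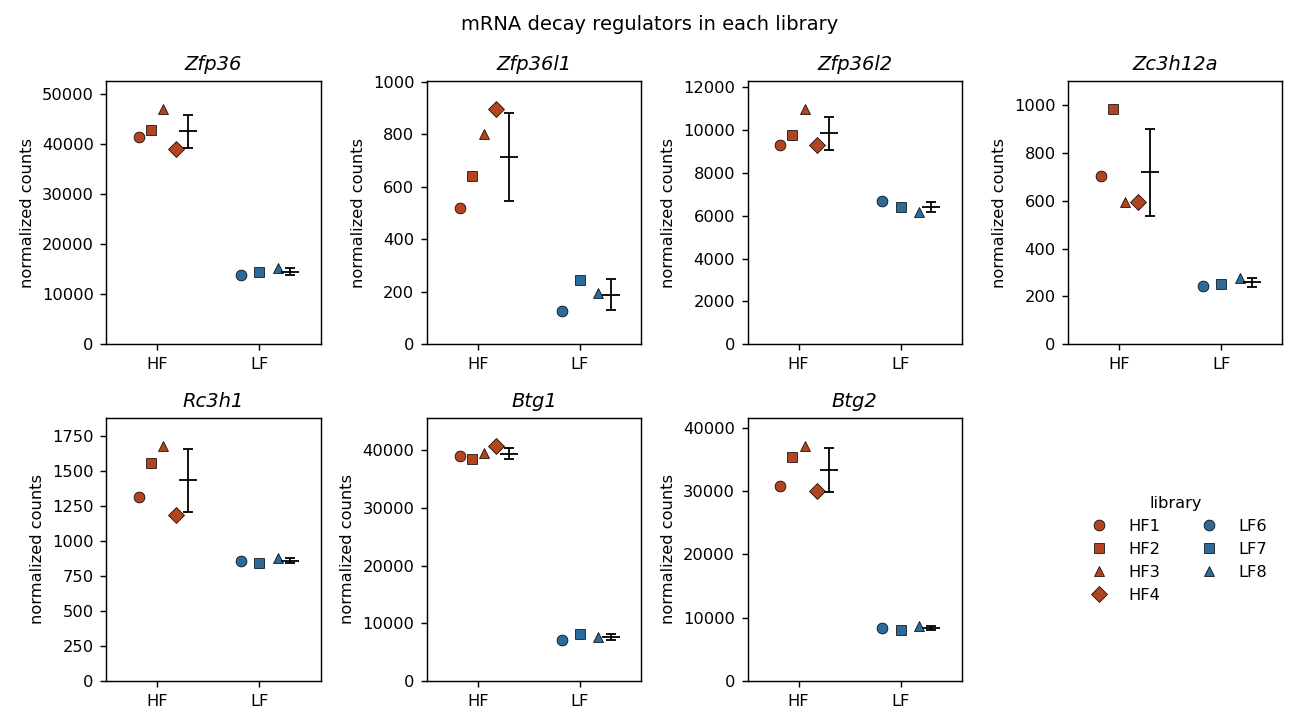
Normalized counts of each regulator (vertical axes, linear from 0) in the 4 HF libraries and the 3 libraries labelled LF, with 1 marker per library and a bar for the mean ± SD. In every panel the HF markers lie above those labelled LF, with the widest gap in Btg1 (38478 to 40751 in HF against 7070 to 8116 labelled LF) and closer groups in Zfp36l2 (9311 to 10980 in HF against 6168 to 6670 labelled LF) and Rc3h1 (1183 to 1680 in HF against 842 to 881 labelled LF).

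Among the zinc finger genes that bind AU-rich elements, Zfp36 was by far the most abundant. Zfp36 (ENSMUSG00000044786) had 41423, 42740, 46929 and 39006 normalized counts in HF replicates 1 to 4, against 13829, 14469 and 15125 in libraries LF6, LF7 and LF8. LF6 to LF8 are names of columns in the table; the LF samples are numbered 1 to 3 in the labels, so a column gives the group but not which of these samples it is. The lowest HF library thus stood well above the highest LF-labelled library. Its mean was 42525 ± 3319 in HF (SD, n = 4) and 14474 ± 648 in LF-labelled libraries (SD, n = 3), a ratio of 2.94 and a log2 difference of 1.55 ± 0.07 (SE; limma adjusted p = 7.83e-07). This difference shrank to 1.03 under equal library totals and to 0.52 under quantile normalization.

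Zfp36l1 (ENSMUSG00000021127), which is also known for its role in B cell and progenitor quiescence, was the scarce member of the family. It had 519, 640, 801 and 895 normalized counts in HF replicates 1 to 4, against 126, 246 and 195 in LF6, LF7 and LF8. The groups were apart, but both were uneven, with coefficients of variation of 23.4% in HF and 32.0% in LF-labelled libraries. The log2 difference was 1.93 ± 0.28 (SE; limma adjusted p = 0.000637), and its 95% interval ran from 1.29 to 2.58.

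Zfp36l2 (ENSMUSG00000045817), a regulator of lymphocyte and erythroid precursors, moved least. It had 9311, 9774, 10980 and 9325 normalized counts in HF replicates 1 to 4, against 6670, 6394 and 6168 in LF6, LF7 and LF8. The groups did not overlap, and the ratio of their means was 1.54. The log2 difference of 0.62 ± 0.07 (SE; limma adjusted p = 0.000225) depended on the scaling: under equal library totals it was 0.10 (limma adjusted p = 0.315), and it was -0.20 after quantile normalization (limma adjusted p = 0.0508). For comparison, equal totals moved the median of all genes tested by -0.51, so that 30% of calls were then higher in HF, against 47.7% under the scaling of the authors.

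The endonuclease gene Zc3h12a (ENSMUSG00000042677) had 703, 982, 594 and 595 normalized counts in HF replicates 1 to 4, against 245, 252 and 278 in LF6, LF7 and LF8. HF replicate 2 stood above the other HF libraries, and all 4 stood above LF-labelled libraries. The log2 difference was 1.44 ± 0.21 (SE; limma adjusted p = 0.000567), and 0.92 with equal library totals. Rc3h1 (ENSMUSG00000040423), which codes for Roquin-1, had 1314, 1560, 1680 and 1183 normalized counts in HF replicates 1 to 4, against 856, 842 and 881 in LF6, LF7 and LF8. LF-labelled libraries were nearly level, with a coefficient of variation of 2.31%, while that of HF was 15.8%. Its log2 difference of 0.72 ± 0.14 (SE; limma adjusted p = 0.00285) was 0.20 with equal library totals (limma adjusted p = 0.275).

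With the authors' scaling the deadenylase adaptors Btg1 and Btg2 showed 2 of the 3 largest differences among the 7. After quantile normalization Zfp36l1 (2.29) and Zc3h12a (1.83) stood above both. Btg1 (ENSMUSG00000036478), known as a brake on proliferation and as a gene of resting cells, had 38988, 38478, 39525 and 40751 normalized counts in HF replicates 1 to 4, against 7070, 8116 and 7588 in LF6, LF7 and LF8. With a coefficient of variation of 2.47%, it was the most even of the 7 across HF libraries. The ratio of means was 5.19, and the log2 difference was 2.38 ± 0.06 (SE; limma adjusted p = 5.9e-08), a size exceeded by 9.78% of the genes tested. Btg2 (ENSMUSG00000020423), an early response gene and p53 target, had 30880, 35395, 37138 and 29977 normalized counts in HF replicates 1 to 4, against 8325, 8011 and 8714 in LF6, LF7 and LF8. Its groups were again far apart, and its log2 difference was 1.99 ± 0.08 (SE; limma adjusted p = 6.54e-07). Both kept their direction and their call with equal library totals, at 1.86 and 1.47, and after quantile normalization, at 1.497 and 1.07.

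**Figure D2:**
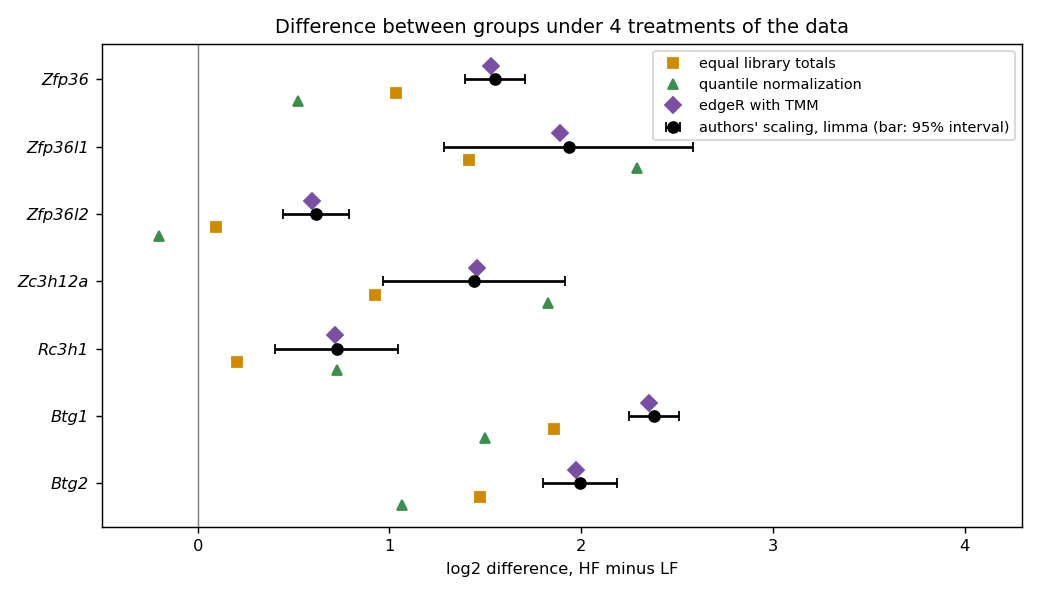
Log2 difference, HF minus LF (horizontal axis), of each regulator with the authors' scaling (limma, bar for the 95% interval), with equal library totals, after quantile normalization, and by edgeR with TMM scaling. Only Zfp36l2 crosses 0, at -0.20 after quantile normalization. Btg1 has the largest difference with the authors' scaling (2.38) and with equal library totals (1.86), and Zfp36l1 after quantile normalization (2.29).

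Levels of different genes were compared per kilobase of annotated exon (GENCODE M21), as normalized counts per kilobase. The annotated exons of Zfp36 together cover its whole gene span of 3470 bases, so no intron is left out of its length. Its level per kilobase, its place and its share of the family depend on that length. In HF libraries the order was Zfp36 (12255 ± 956, SD, n = 4), Btg2 (12157 ± 1263), Btg1 (7475 ± 185), Zfp36l2 (2790 ± 222), Zc3h12a (249 ± 63.5), Zfp36l1 (239 ± 56.0) and Rc3h1 (127 ± 20.0). The first 2 overlapped across libraries, and so did Zc3h12a and Zfp36l1. In LF-labelled libraries the order was Zfp36 (4171 ± 187, SD, n = 3), Btg2 (3044 ± 128), Zfp36l2 (1816 ± 71.3), Btg1 (1439 ± 99.1), Zc3h12a (89.7 ± 6.04), Rc3h1 (76.0 ± 1.76) and Zfp36l1 (63.2 ± 20.2), of which the last 2 overlapped. Btg1 and Zfp36l2 thus changed places: Btg1 per kilobase stood above Zfp36l2 in all 4 HF libraries and below it in all 3 libraries labelled LF. This exchange was seen in the values and was not tested. By level per kilobase Zfp36 and Btg2 were the 53rd and 55th of 14923 genes in HF libraries and the 93rd and 164th in LF-labelled libraries. Rc3h1, the lowest in HF, stood at place 4848.

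Ratios of 2 members within a library hardly depend on a single scaling factor per library, such as the authors' scaling or equal library totals. Quantile normalization can change such ratios, and they were not compared after it. An exact two-sided permutation test over the 35 ways of assigning the libraries (smallest possible p = 0.0286) was used for 5 such ratios. The balance within the Zfp36 family shifted away from Zfp36l2. The log2 ratio of Zfp36 to Zfp36l2 was 2.15, 2.13, 2.10 and 2.06 in HF replicates 1 to 4, against 1.05, 1.18 and 1.29 in LF6, LF7 and LF8. The groups did not overlap and differed by 0.94 (exact permutation p = 0.0286, adjusted p = 0.0476 over the 5 ratios). The ratio of Zfp36l1 to Zfp36l2 differed by 1.32, with -3.81 ± 0.33 in HF (SD, n = 4) and -5.13 ± 0.53 in LF-labelled libraries (SD, n = 3; exact permutation p = 0.0286, adjusted p = 0.0476). For Zfp36 to Zfp36l1 the difference was -0.38, the groups overlapped, and it did not pass (exact permutation p = 0.343, adjusted p = 0.343). Zfp36 made up 80.2% ± 0.719 of the family's level per kilobase in HF (SD, n = 4) and 68.9% ± 1.64 in LF-labelled libraries (SD, n = 3), and Zfp36l2 made up 18.3% ± 0.328 in HF and 30.04% ± 1.82 in LF-labelled libraries.

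Between the adaptors the balance moved toward Btg1. The log2 ratio of Btg2 to Btg1 was -0.34, -0.12, -0.09 and -0.44 in HF replicates 1 to 4, against 0.24, -0.02 and 0.20 in LF6, LF7 and LF8. The difference of -0.39 was without overlap, though HF replicate 3 and LF7 lay close to each other (exact permutation p = 0.0286, adjusted p = 0.0476). For Zc3h12a to Rc3h1 the log2 ratio was -1.01 ± 0.35 in HF (SD, n = 4) and -1.73 ± 0.07 in LF-labelled libraries (SD, n = 3), a difference of 0.72 that did not pass (exact permutation p = 0.0571, adjusted p = 0.0714). The groups of this ratio did not overlap, with HF replicate 3 at -1.50 nearest to LF8 at -1.66.

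**Figure D3:**
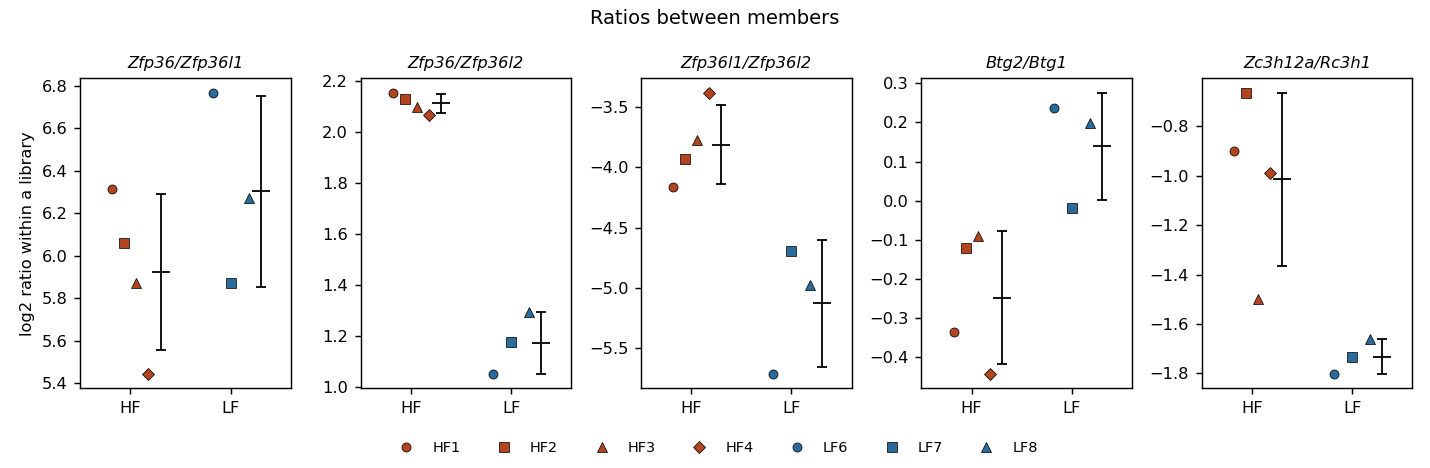
Log2 ratio of normalized counts of 2 regulators within each library (vertical axes, each with its own range), for the 4 HF libraries and the 3 libraries labelled LF, with a bar for the mean ± SD. The ratio Zfp36/Zfp36l2 is tight within HF (2.06 to 2.15) and lies above that of LF-labelled libraries (1.05 to 1.29), whereas the groups overlap in Zfp36/Zfp36l1.

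Relatives of the 7 did not move in one direction. Of 10 listed relatives 9 were in the table and 6 were tested, of which 2 were higher and 2 were lower in HF, with a median of -0.99; with equal library totals 2 were higher and 4 lower. Tob1, a BTG/TOB adaptor that also binds the deadenylase subunits, averaged 2678 ± 286 in HF (SD, n = 4) and 296 ± 27.0 in LF-labelled libraries (SD, n = 3), a log2 difference of 3.17. Its paralogue Tob2 averaged 645 ± 149 in HF and 1687 ± 11.7 in LF-labelled libraries, a log2 difference of -1.42 (limma adjusted p = 4.99e-07 and 0.000463). Rc3h2, the paralogue of Rc3h1, averaged 2750 ± 273 in HF and 1259 ± 105 in LF-labelled libraries, a log2 difference of 1.124, and kept that direction with equal library totals (0.60). Zc3h12d, a relative of Regnase-1 named after its values were seen, averaged 243 ± 158 in HF and 705 ± 64.3 in LF-labelled libraries, and was lower in HF (limma adjusted p = 0.0153), while Zc3h12a was higher. Zc3h12b had 0 reads in all HF libraries and at most 19.5 normalized counts in LF-labelled libraries, and Zfp36l3 had 0 reads in all libraries labelled LF and at most 2.57 in HF; both were also named after their values were seen.

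Genes of deadenylase complexes, among them the CCR4-NOT complex that the regulators recruit, did not share the direction of the 7. Of 15 such genes tested (CCR4-NOT, PAN and PARN), limma called 0 higher and 2 lower and 13 did not pass, with a median of -0.16. At an unadjusted p under 0.05 limma still had 0 higher; edgeR and DESeq2 also called 0 higher and 2 lower, while limma called 1 higher after quantile normalization and without HF replicate 1 or 2. The count of lower calls was 1 without LF8, 3 without HF replicate 4 and 5 after quantile normalization. Cnot1, the scaffold of CCR4-NOT, averaged 2788 ± 364 in HF (SD, n = 4) and 3005 ± 240 in LF-labelled libraries (SD, n = 3), and its log2 difference of -0.11 did not pass (limma adjusted p = 0.437). The 2 called were Cnot9 at -1.62 and Parn at -1.65. With equal library totals limma called 0 higher and 8 lower. Of 18 genes of decapping and of decay from the 5′ end, 2 were higher and 9 were lower. Leaving out any LF-labelled library left 6 or 7 of them lower by limma. The helicase gene Ddx6 was higher by 2.17 ± 0.15 (SE; limma adjusted p = 7.83e-06), with 6095 ± 1060 in HF and 1344 ± 174 in LF-labelled libraries. Lsm7, a subunit of the ring that binds shortened tails, was lower at -2.11, and the nuclear exonuclease gene Xrn2 at -1.74. With equal library totals the split was 1 higher and 15 lower.

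Genes of the exosome, which degrades RNA from the 3′ end, were mostly lower: of 15 tested, 12 were lower and 1 was higher in HF, with a median of -2.16. Leaving out any LF-labelled library left 8 lower by limma (12 at an unadjusted p under 0.05). Exosc9, Dis3, Dis3l, Dis3l2 and Ttc37, named after their values were seen, had 0 reads in some HF libraries, which can enlarge their differences. Exosc8 averaged 126 ± 34.4 in HF (SD, n = 4) and 549 ± 42.3 in LF-labelled libraries (SD, n = 3), and Wdr61, of the helper complex, averaged 223 ± 49.6 in HF and 844 ± 79.6 in LF-labelled libraries. The exception was Exosc4, higher by 0.86 (limma adjusted p = 0.00113), which did not pass with equal library totals. These lists stand beside a background in which 28.7% of genes tested were lower in HF (20.2% to 20.6% with an LF-labelled library left out).

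Among 16 other RNA-binding proteins of this kind of mRNA, 3 were higher and 7 were lower, with a median of -0.39 (2 higher and 13 lower with equal library totals). Leaving out any LF-labelled library left 2 higher and 5 lower by limma. Arid5a, known for shielding Il6 mRNA from Regnase-1, was higher by 2.53 ± 0.15 (SE; limma adjusted p = 4.9e-06), at 7697 ± 1405 in HF (SD, n = 4) and 1323 ± 168 in LF-labelled libraries (SD, n = 3). N4bp1, a nuclease that restrains inflammatory signalling, was higher by 1.13. Hnrnpd (AUF1), which binds AU-rich elements, was lower at -0.82, with 1317 ± 111 in HF and 2317 ± 46.6 in LF-labelled libraries.

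Genes listed as acting upstream of the regulators split. They include kinases, phosphatases, a protease and adaptor or binding proteins. Of 15 tested, 7 were higher and 6 lower, with a median of 0.32 (4 higher and 8 lower with equal library totals). Dusp1, the phosphatase that turns off p38 and thereby tristetraprolin phosphorylation, averaged 86561 ± 6899 in HF (SD, n = 4) and 22734 ± 568 in LF-labelled libraries (SD, n = 3), a log2 difference of 1.93. Bcl10, the partner of the protease MALT1 that cleaves Regnase-1 and Roquin, was higher by 1.29. Ikbkb, a kinase that marks Regnase-1 for degradation, was lower at -1.67, with 2751 ± 273 in HF and 8712 ± 121 in LF-labelled libraries. Of the p38 pathway, Mapk14 was higher by 1.04 (0.20 after quantile normalization, limma adjusted p = 0.0517) and Mapkapk2 was lower at -0.87 (limma adjusted p = 3.57e-05 and 0.00329 with the authors' scaling), both named after their values were seen.

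Of 31 mRNAs reported elsewhere as targets of tristetraprolin, Regnase-1 or Roquin, 30 were in the table and 26 were tested. Of these, 18 passed as higher, 2 as lower and 6 in neither direction, with a median of 2.20 (17 higher and 2 lower with equal library totals). Leaving out any LF-labelled library left 17 or 18 higher and limma then called 0 lower, against 1 at an unadjusted p under 0.05. The 4 that missed the filter, Il10, Il12b, Il2 and Csf2, averaged under 10 normalized counts in each group. Il1b averaged 92246 ± 6330 in HF (SD, n = 4) and 2501 ± 371 in LF-labelled libraries (SD, n = 3), a log2 difference of 5.21. Lcn2, also a neutrophil granule gene on the marker list above, had the largest difference among the targets at 9.93. Of 12 tested targets with a nonamer, 10 were higher and 1 was lower, and of 14 without one, 8 were higher and 1 was lower.

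The 3 targets whose sites are printed above, and Il6, were named after their values were seen. Tnf had 792, 2667, 407 and 598 normalized counts in HF replicates 1 to 4, against 131, 149 and 160 in LF6, LF7 and LF8. HF replicate 2, the library with the most Zc3h12a, also held the most Tnf, and the groups did not overlap (log2 difference 2.53 ± 0.57, SE; limma adjusted p = 0.00613). Cxcl2, a neutrophil attractant, averaged 13030 ± 1494 in HF (SD, n = 4) and 371 ± 119 in LF-labelled libraries (SD, n = 3). Ptgs2, which encodes cyclooxygenase-2, averaged 10211 ± 2139 in HF and 93.4 ± 26.9 in LF-labelled libraries. Il6 stood at 0, 10.3, 440 and 15.4 in HF replicates 1 to 4 and between 3.00 and 13.5 in LF-labelled libraries, and did not pass (limma adjusted p = 0.554).

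Over all 944 tested genes with a nonamer, 273 (28.9%) were higher and 294 (31.1%) were lower in HF, with a median of -0.14. Over the 10659 genes without one the shares were 25.4% higher and 33.4% lower, with a median of -0.32. The 3′ untranslated regions of the first set were longer, with a median of 2392.5 bases with a nonamer against 1055 without, and no test was made of these differences.

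**Figure D4:**
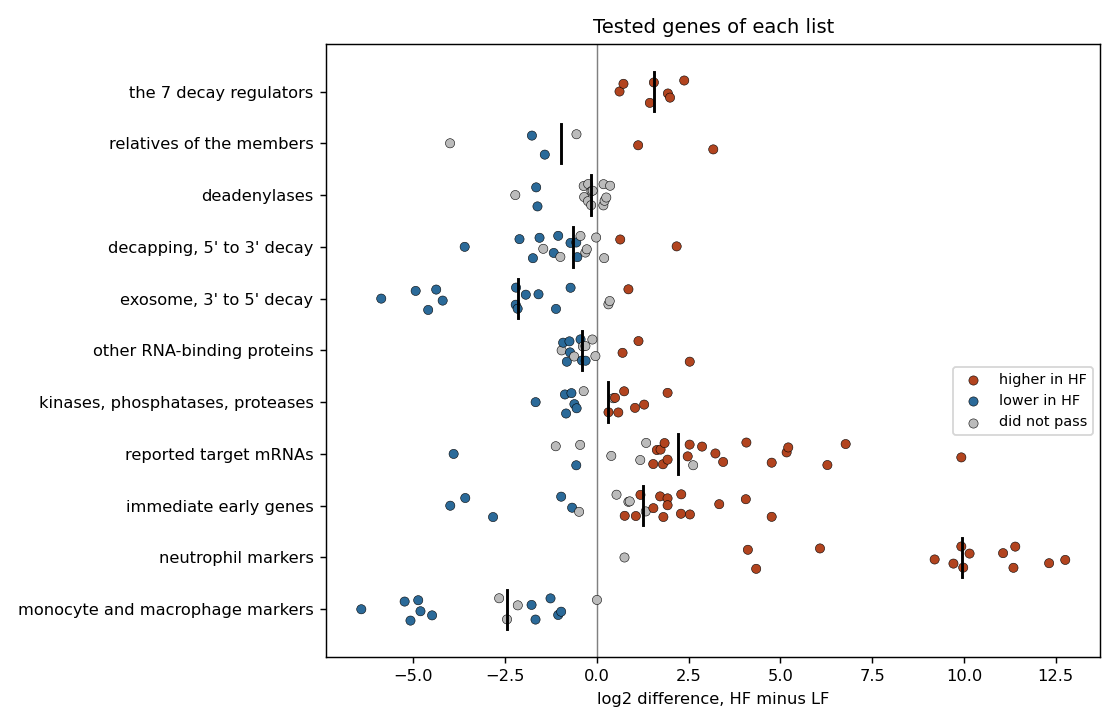
Log2 difference, HF minus LF (horizontal axis), of every tested gene of each list, 1 point per gene, coloured by whether it passed as higher in HF, as lower in HF or did not pass, with a black line at the median. The 7 regulators lie between 0.62 and 2.38, the exosome genes have a median of -2.16, and the neutrophil and monocyte markers have medians of 9.95 and -2.45 between the same libraries.

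Zfp36 and Btg2 are known as early response genes, and 24 others of that kind were listed and tested. Of these 24, 14 passed as higher, 5 as lower and 5 in neither direction, with a median of 1.26 (13 higher and 6 lower with equal library totals). Over all genes tested, 26.2% passed as higher and 28.7% as lower with the authors' scaling. Junb averaged 42717 ± 3673 in HF (SD, n = 4) and 8698 ± 985 in LF-labelled libraries (SD, n = 3), a log2 difference of 2.30. Among those that were lower, named after their values were seen, were the heat shock gene Hspa1a at -3.58 and the transcription factor gene Klf4 at -3.99.

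The genes whose pattern over the 7 libraries was most like each regulator were found by the root mean square distance between centred log2 values, among 9566 genes that averaged 50 or more normalized counts, leaving out predicted genes, clones, pseudogenes and genes of the mitochondrial genome. For Zfp36 these were Fos (distance 0.047, log2 difference 1.54) and Abr (0.059). Fos averaged 66997 ± 6060 in HF (SD, n = 4) and 23005 ± 894 in LF-labelled libraries (SD, n = 3). For Btg2 they were Ankrd12 (0.051) and Setd7 (0.069), and for Btg1 Akt2 (0.064) and Tmem71 (0.070). Zfp36l2 was nearest to Serp1 (0.044) and Grk2 (0.051), and Rc3h1 to Zfp68 (0.041). The uneven genes had no close match: Zc3h12a was nearest to Haus8 (0.149) and Rnf19a (0.152), and Zfp36l1 to Zfp821 (0.208) and Wdtc1 (0.232). Among the 7 themselves, Zfp36l2 and Rc3h1 were the closest pair (0.117) and Zfp36l2 and Btg1 the farthest (0.879). The log2 differences were 0.62 and 0.72 in the closest pair and 0.62 and 2.38 in the farthest. Such distances thus largely restate the size of the difference between the groups, and shared control of these genes was not tested.

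Since the 7 differed in the same direction with the authors' scaling (Zfp36l2 turned under quantile normalization), the sequence before their start sites was searched for common elements, on both strands of the 250 bases upstream (RefSeq, build GRCm38.p6; 6 of the 7 matched). The cyclic AMP response element TGACGTCA was found in Btg2 and in 1.55% of 32851 promoters. A CArG box, the element bound by serum response factor, was found in Zfp36 and in 1.47% of promoters, and the EGR site GCGGGGGCG in Zfp36 and in 2.57%. The TATA box TATAAA was found in Zfp36l1 and Btg1 and in 12.4% of promoters, and the CCAAT box in Zfp36l1, Btg1 and Btg2 and in 33.8%; in Zfp36l1 the CCAAT box, on the reverse strand, shares 1 base with the TATA box. The GC box GGGCGG was found in 5 of the 6 and in 32.7% of promoters, the AP-1 site TGACTCA in Rc3h1 and in 4.46%, and an NF-kB site in 0 of the 6 and in 7.25%. The adaptor promoters are printed for the 180 bases before the start site, with TATA, CCAAT and cyclic AMP response elements in capitals, and for Zfp36 30 bases around each of its 2 elements, because these 3 had the highest levels per kilobase of the 7 in HF libraries.
Btg1: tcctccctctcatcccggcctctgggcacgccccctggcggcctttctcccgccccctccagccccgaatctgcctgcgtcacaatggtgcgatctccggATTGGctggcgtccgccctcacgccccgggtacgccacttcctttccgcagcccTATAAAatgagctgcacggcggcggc
Btg2: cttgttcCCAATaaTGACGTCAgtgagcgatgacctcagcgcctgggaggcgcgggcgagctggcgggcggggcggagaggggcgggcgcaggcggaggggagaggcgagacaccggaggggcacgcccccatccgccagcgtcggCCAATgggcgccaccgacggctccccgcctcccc
Zfp36, EGR site: gagctacgccGCGGGGGCGcgtcccggaag
Zfp36, CArG box: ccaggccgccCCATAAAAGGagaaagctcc
The Btg1 stretch lies at chr10:96616821-96617000 on the plus strand and that of Btg2 at chr1:134079156-134079335 on the minus strand. Those of Zfp36 lie at chr7:28379314-28379343 and chr7:28379267-28379296 on the minus strand, within the Zfp36 gene as GENCODE M21 annotates it. A match of letters is a description and does not show that a factor binds there.

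Overlapping and copied genes bear on the counts of the 7, because no source used here says whether counting used strand. In the GENCODE M21 annotation an antisense gene overlaps exons of Zfp36 (Gm44710, 4.14 normalized counts in HF and 6.53 in LF-labelled libraries) and another those of Zfp36l1 (Gm26669, 12.9 in HF and 4.62 in LF-labelled libraries), both far below the regulator they overlap. These counts do not show how many reads, if any, the overlap took from either regulator, which was not tested. A further antisense gene, AC132455.1, overlaps exons of Zfp36l2; it is not among the genes of the table used here, so its level was not analysed here. The copies Btg1-ps1, Btg1-ps2 and Zfp36l1-ps averaged 3.21, 9.53 and 0.889 normalized counts in HF and 0, 0.499 and 0 in LF-labelled libraries.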

How the data were processed

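RNA from sorted mouse lung cells was sequenced in 4 HF and 3 LF libraries. Per the submitters' processing notes the tools included DESeq2 1.20.0, featureCounts 1.6.3 and STAR 2.6.1b; genome build and counting options: not given in the sources used here. The deposited signal of each library is a normalized count. Log2 fold changes, p-values and a test score of the authors stand beside it, per the file headers. All values (100%, within 0.01) were whole multiples of 1 read, so reads were recovered by division; edgeR's quasi-likelihood test on them with the authors' size factors called 7624 genes, and limma 8211.

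The 14936 genes whose normalized counts averaged 10 or more were tested with limma's trend method on log2(normalized count + 1), HF minus LF, at a Benjamini-Hochberg adjusted p under 0.05. On this scale the added 1 shrinks changes of low genes, while a library at 0 can enlarge them. Ttc37, at 0 in HF replicate 3 and named after its values were seen, had -4.59 beside a ratio of means, HF over LF, of 0.136. Ratios of members were tested with exact two-sided permutation tests. Lengths and 3′ untranslated regions came from GENCODE M21 (35597 genes matched by ID) and promoters from RefSeq. Tools were R 4.3.3, limma 3.58.1, edgeR 4.0.16 and DESeq2 1.42.0, tested on simulated data. The members and lists were chosen with earlier results of these data known. Some genes stand on several lists, so the counts of the lists are not independent. Among them, Dusp1 is on the upstream, target and early response lists, and Ier3 on the target and early response lists. Siglecf is on the alveolar macrophage and eosinophil lists, and Nr4a1 on the monocyte and early response lists. Besides the members, names were drawn from the 3 genes of lowest p and the most abundant one of each list, and the 2 genes nearest to each member; others are said to be named after their values were seen. Each library is taken as 1 mouse, as the design counts mice. Depth is given as reads in genes; no share of counts is reported for a single library. Alternatives were other pseudocounts, filters, scalings and tools, and leaving out each library. Some items are not reported here.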

Additional observations from a re-analysis of the deposited data

How the results depend on the processing

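All 7 regulators were called higher under 2 other pseudocounts, 2 other filters, edgeR with either scaling, DESeq2 and without each library in turn. The scaling changed calls of 2 regulators: with equal library totals Zfp36l2 (0.10) and Rc3h1 (0.20) did not pass, leaving 5 calls, and after quantile normalization Zfp36l2 reversed to -0.20, leaving 6; the cause was not tested. Genes called over the whole table numbered 6432 to 8991, and 6432 to 8470 with 1 library left out. With a library left out, the ratio differences kept their sign: Zfp36/Zfp36l2 0.87 to 0.996, Zfp36l1/Zfp36l2 1.02 to 1.54, Btg2/Btg1 -0.47 to -0.32, Zfp36/Zfp36l1 -0.60 to -0.15 and Zc3h12a/Rc3h1 0.60 to 0.88. None could then pass, since the smallest exact permutation p is 0.1 for 3 against 3 libraries and 0.0667 for 4 against 2. No paired analysis was possible because the LF columns carry the numbers 6 to 8, which match no LF sample label (1 to 3), and the HF columns 1 to 4. Depth limits Zfp36l1 most, with 168 reads in its lowest library.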

Other observations

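Markers of further cell types differed between the libraries in both directions. The 12 dendritic cell markers summed to between 13176 and 31621 normalized counts in HF libraries and to between 72582 and 88964 in LF-labelled libraries, and limma called 8 lower and 1 higher in HF. The 9 measured eosinophil, basophil and mast cell markers summed to between 2382 and 2742 in HF libraries and to between 87.7 and 280.0 in LF-labelled libraries. Limma called 3 of these higher, against 6 of 8 tested without HF replicate 4 and 5 of 9 with edgeR and with DESeq2.

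The 9 measured platelet markers summed to between 1913 and 6134 in HF libraries and to between 624 and 1038 in LF-labelled libraries, with 7 higher. The 6 erythroid markers summed to between 5308 and 10951 in HF libraries and to between 2859 and 4249 in LF-labelled libraries, with 3 higher. The 13 epithelial, endothelial and stromal markers summed to between 3020 and 4608 in HF libraries and to between 574 and 1202 in LF-labelled libraries; of 10 tested 3 were higher and 1 lower, and the lower call was lost without any 1 library other than HF replicate 2.

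Alveolar macrophage markers overlapped, at 9414 to 34031 in HF libraries and 24442 to 27012 in LF-labelled libraries, with 2 higher and 3 lower of 10 tested; leaving out 1 library gave 1 to 3 higher and 2 to 4 lower. B cell markers also overlapped, at 5383 to 11393 in HF libraries and 7001 to 7804 in LF-labelled libraries, with 1 of 7 higher (2 without HF replicate 3, and 0 without LF7, where 1 was higher at an unadjusted p under 0.05). Of 11 T and NK cell markers limma called 0 in either direction with the authors' scaling (1 lower at an unadjusted p under 0.05), and edgeR and DESeq2 called 0. Limma called 1 lower with equal library totals and without HF replicate 1, and 1 higher after quantile normalization. The part of these cell types in the levels of the 7 regulators was not tested.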
